A study of Mus musculus with 2 samples.

Results

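A set of 9 RNA-binding protein genes of the paraspeckle was followed between a library of MS1 cells with a control hairpin and a library with a Pspc1 hairpin. They encode the FET proteins EWSR1 and TAF15, TDP-43 (Tardbp), matrin 3 (Matr3), RBM14, DAZAP1, RBMX, CIRBP and RBM3. The genes were chosen by name, as prion-like RNA-binding proteins reported in paraspeckles, and matched through Ensembl identifiers. All 9 were found among the 11405 genes that both tables list. MS1 is an endothelial cell line derived from islets of the mouse pancreas. Both libraries came from MS1 cells infected with lentivirus: the control carried a hairpin against LacZ, which is a bacterial gene and has no mouse counterpart, on a genotype labelled wt, and the other a short hairpin RNA against Pspc1, with the genotype labelled as a Pspc1 knockdown. There was 1 library per group, so no value has a replicate error, no p-value can be given and every difference lies between 2 libraries, not between 2 conditions. The sources used here give neither the hairpin sequences nor whether the infected cells were a pool or a clone.

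Paraspeckles are nuclear bodies that form around Neat1, a long noncoding RNA. The DBHS proteins NONO, SFPQ and PSPC1 coat that RNA, and proteins with low-complexity, prion-like regions join them and help the body condense. EWSR1 and TAF15 belong to the FET family and act in transcription and splicing. TDP-43 represses the use of unwanted exons and limits its own messenger RNA. In cell lines RBM14 and DAZAP1 are needed for intact paraspeckles, whereas the other genes here are better known as residents or regulators. RBMX is also called hnRNP G. CIRBP and RBM3 are small glycine-rich RNA chaperones whose messengers rise with mild cooling.

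The values are reads per gene that the authors divided by 1 factor per library, and are called deposited values below, with the control first. The control library held 64009912 reads on these genes and the knockdown library 53518762. Pspc1, the target of the hairpin, stood at 28.8 and 3.78. All 8 endothelial markers were listed (Cdh5, Emcn, Eng, Erg, Kdr, Pecam1, Tek and Tie1), with summed values of 5186 and 4917. Some single markers differed more than the sum: Cdh5 had 859.4 and 511.2, Kdr 148.9 and 77.3, Tek 13.6 and 7.13, Erg 119.4 and 84.96, and Tie1 1080 and 1355. Their part in the results was not tested. Of 7 islet and epithelial markers only Krt18 was listed (23.9 and 36.9), of 5 fibroblast markers only Pdgfra (1.15 and 0.985), of 5 mural markers only Pdgfrb (0.720 and 2.38) and of 4 macrophage markers only Cd68, a gene many cell types use (102.7 and 123.7). In bulk RNA, fewer cells with a transcript and less of it per cell cannot be told apart.

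Several of the genes have close relatives, and the coding sequences below show how alike they are, since near-identical stretches decide whether a short read can be assigned to 1 gene. Each pair is the most alike stretch of 120 bases without a gap that holds at least 1 difference, from GENCODE M21 transcripts, 5′ to 3′, with differing bases in capitals. Rbmx and its copy Rbmxl1 were identical at 116 of the 120 positions, and at 90.9% of 1164 aligned coding bases:
Rbmx: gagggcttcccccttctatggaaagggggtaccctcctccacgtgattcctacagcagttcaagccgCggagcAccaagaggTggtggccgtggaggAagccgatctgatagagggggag
Rbmxl1: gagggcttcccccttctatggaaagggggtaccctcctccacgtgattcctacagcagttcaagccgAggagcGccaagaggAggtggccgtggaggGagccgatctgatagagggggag
Cirbp and Rbm3 were identical at 88 of 120 positions in a stretch near the start of both coding sequences, and at 71.1% of 450 aligned bases, with no identical run over 11 bases:
Cirbp: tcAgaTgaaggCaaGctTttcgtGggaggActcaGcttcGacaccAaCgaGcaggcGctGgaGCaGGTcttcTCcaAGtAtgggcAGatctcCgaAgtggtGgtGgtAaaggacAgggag
Rbm3: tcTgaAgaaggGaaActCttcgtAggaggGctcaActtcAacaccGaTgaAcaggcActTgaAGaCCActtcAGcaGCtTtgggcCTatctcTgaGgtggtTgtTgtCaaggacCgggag
Ewsr1 and Taf15 were identical at 94 of 120 positions in their most alike stretch and at 63.5% of 1461 aligned bases, with no identical run over 13 bases:
Ewsr1: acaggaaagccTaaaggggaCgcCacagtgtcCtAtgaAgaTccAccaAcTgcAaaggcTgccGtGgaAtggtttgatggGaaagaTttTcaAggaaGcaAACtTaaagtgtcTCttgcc
Taf15: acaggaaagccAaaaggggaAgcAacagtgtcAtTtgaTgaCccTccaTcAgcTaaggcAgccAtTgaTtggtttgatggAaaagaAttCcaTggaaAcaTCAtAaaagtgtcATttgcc

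The share of each gene that other genes repeat differed widely. Of all windows of 50 bases in the protein-coding transcripts of Taf15, Dazap1 and Cirbp, 0% occurred in a transcript of any other gene. For Rbmx it was 0.909%, although the copy Rbmxl1 shared 79.6% of its own windows with other loci, mostly 2 genes with predicted names. Ewsr1 shared 18.3% of its windows with 3 genes at other loci and 5.33% with Rhbdd3, whose exons overlap it on the opposite strand. Rbm3 shared 12.0% with other loci, first of all its pseudogene Rbm3-ps. Tardbp shared 20.98% with Masp2, which runs on the opposite strand across 1817 of the 7796 exonic bases of Tardbp. Rbm14 shared 17.7% with overlapping genes, mainly Gm21992 on its own strand. Reads in such stretches may have been dropped or split, since the sources used here give neither strand use nor the treatment of shared reads.

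The 9 genes covered a wide range of levels, and their order was almost the same in both libraries. Levels between genes were compared as the deposited value per kilobase of merged exons. Dazap1 was highest (89.2 and 86.8 per kilobase), then Rbm3 (73.3 and 77.5), Ewsr1 (42.2 and 37.7) and Rbm14 (28.3 and 29.5). These 4 genes lay above 81.8% or more of all listed genes in both libraries.
Below them came Tardbp (12.5 and 7.94 per kilobase), Taf15 (11.3 and 7.54), Cirbp (10.02 and 9.75) and Rbmx (9.70 and 7.32). Cirbp took the seventh place in the control library and the fifth in the knockdown library, ahead of Tardbp and Taf15. The 95% counting intervals of Cirbp and Rbmx overlapped in the control library, as did those of Tardbp and Taf15 and of Taf15 and Rbmx in the knockdown library, so these neighbours were not separated. All other neighbours were, by counting error alone. Matr3 was lowest by far, at 0.288 and 0.145 per kilobase, above only 5.86% and 3.53% of listed genes. When the length of the longest coding transcript was used instead, the first 4 places, Taf15 and Matr3 kept their rank in the control library, Cirbp moved to the fifth place and Tardbp from the fifth to the eighth.

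**Figure D1:**
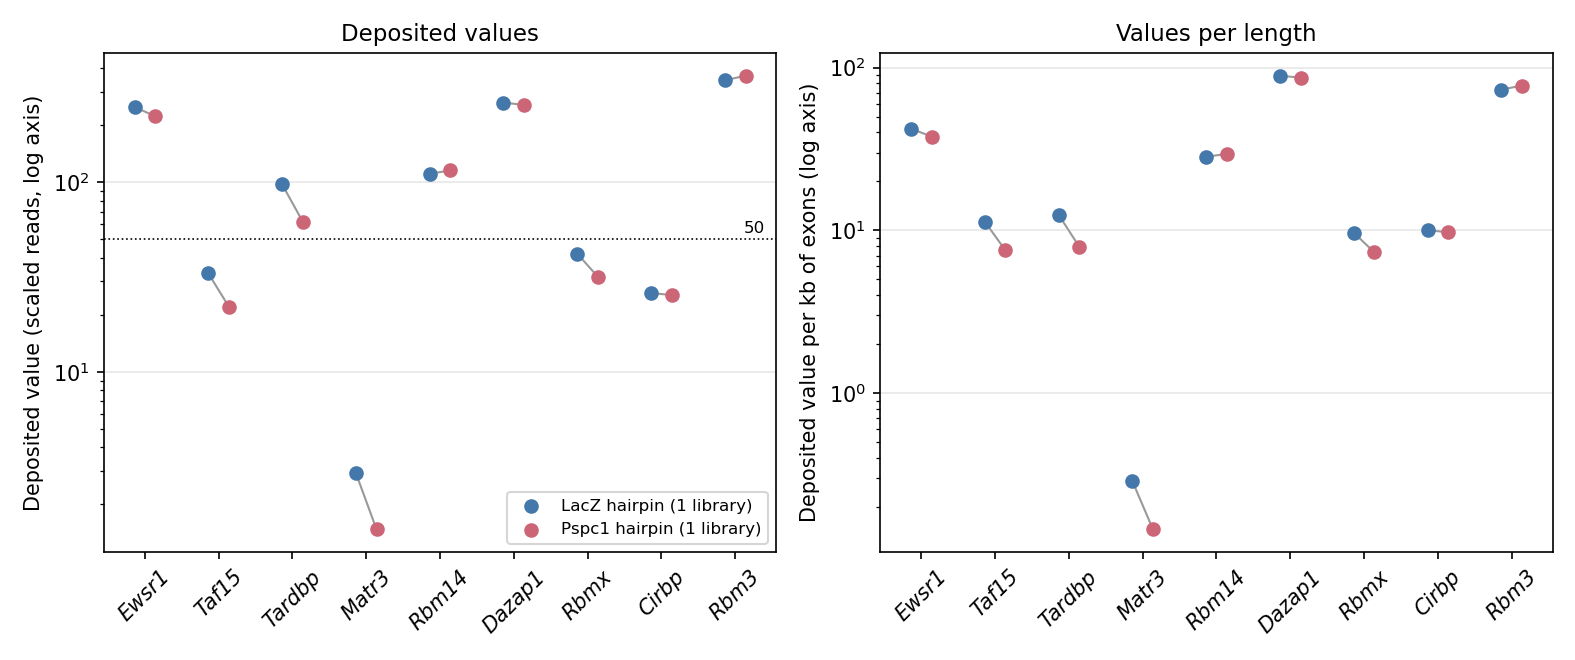
Deposited values (left) and deposited values per kilobase of merged exons (right) of the 9 genes on log axes, with 1 point per library: blue for the LacZ hairpin and red for the Pspc1 hairpin. Per kilobase Dazap1 and Rbm3 are the highest, Matr3 is the lowest, and Tardbp, Taf15, Rbmx and Matr3 show the steepest lines down to the knockdown library.

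Differences between the libraries are given as the log2 ratio of knockdown over control, with 0.5 added to each value, beside the 95% counting interval of the ratio without that addition. Of the 9 genes, 5 (Ewsr1, Tardbp, Rbm14, Dazap1 and Rbm3) averaged at least 50 over both libraries, and Taf15, Rbmx and Cirbp at least 20. None of the 5 was 2-fold lower or higher, where 0.937% of the 3629 genes of that mean were 2-fold lower and 0.551% 2-fold higher. Tardbp alone of the 5 was at least 1.5-fold lower, against 3.89% of genes, and none was 1.5-fold higher, against 3.39%. Below 0 were 3 of the 5 ratios, against 39.9% of genes. With scaling by total reads it was 5 of 5 against 54.5% of genes, with a trimmed mean (TMM) 2 of 5 against 34.2% and by the median of ratios 2 of 5 against 33.2%. The median of the 5 was -0.04 (0.002 with TMM scaling and 0.01 by the median of ratios), beside 0.07 for all genes of that mean. Among genes of mean 20 or more the shares were 5.52% for 1.5-fold lower, 3.82% for 1.5-fold higher and 45% below 0, and of the 8 measured genes 1, 0 and 6 fell in these classes. With so few genes these counts describe 2 libraries and separate the 9 genes from no others.

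Of the FET genes, Ewsr1 differed little and Taf15 more. Ewsr1 (ENSMUSG00000009079, mm10 chromosome 11, 5069689 to 5099266, minus strand) encodes the RNA-binding protein that is joined to ETS factors in Ewing sarcoma. It had values of 249.2 and 222.6, from 16262 and 11301 reads. The log2 ratio was -0.16, with an interval of -0.20 to -0.13, and 21.1% of genes of mean 50 or more had a lower ratio. Taf15 (ENSMUSG00000020680, chromosome 11, 83473086 to 83506743, plus strand), a relative found with the general transcription factor TFIID, had 33.07 and 22.003, from 2158 and 1117 reads. Its log2 ratio was -0.58 (interval -0.69 to -0.48), lower than in all but 5.67% of genes of mean 20 or more. Without the added 0.5 it was 1.503-fold lower, just past the 1.5-fold line, and with it just short. The intervals of both genes did not overlap.

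Tardbp was the only well-measured gene of the 9 that was at least 1.5-fold lower. Tardbp (ENSMUSG00000041459, chromosome 4, 148612382 to 148627019, minus strand) encodes TDP-43, a repressor of cryptic exons that aggregates in motor neuron disease. Its values were 97.4 and 61.9, so that the knockdown library held 63.5% of the control level, on 3142 against 6356 reads, and the counting interval of the log2 ratio ran from -0.72 to -0.59. Only 2.87% of genes of mean 50 or more had a lower ratio. Tardbp has 7796 bp of exons and a GC content of 41.8%, and long, AT-rich genes were lower as a class. In the length decile that holds Tardbp, the median gene had a log2 ratio of -0.10, and in its GC decile -0.20. After a correction for the trend with length and GC its log2 ratio was -0.38 in place of -0.65, and it was no longer 1.5-fold lower. Whether the antisense exons of Masp2, which is not listed in these tables, bear on this value was not tested.

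Of 12 genes linked to regulation by TDP-43, not all of them through splicing, 11 were listed and 5 had a mean of at least 50. Among these 1 was 2-fold lower (0.937% of genes of that mean) and none was 1.5-fold higher (3.39%). Of the 5, 3 stood above 0 and 2 below it, where 39.9% of genes of that mean stood below 0. The median log2 ratio of the 5 was 0.10 (0.0004 with scaling by total reads), beside 0.07 for all genes of that mean. Over all 11 listed genes, 6 of them with a mean under 50, 8 stood below 0 and the median was -0.44. Without a filter 6252 of all 11405 genes stood below 0, with a median of -0.05. Hgsnat, a lysosomal acetyltransferase gene in which TDP-43 loss exposes a cryptic exon, had 241.6 and 118.4, 2.04-fold less (-1.05 after the length and GC correction). Poldip3, whose exon choice follows TDP-43, had 239.5 and 328.7, or 1.37-fold more. Spata13 had 74.0 and 53.9 and the autophagy gene Atg7 50.1 and 56.6. The genes thus differed in direction. Gene totals hold no exon usage, so splicing itself was not measured.

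Rbm14 and Dazap1, which are needed for intact paraspeckles in cell lines, had nearly equal values in both libraries. The paraspeckle core genes, given below, had a median log2 ratio of -0.31. Rbm14 (ENSMUSG00000006456, chromosome 19, 4800569 to 4811634, minus strand), a coactivator-like protein that bridges paraspeckle units, had 110.8 and 115.4. Its log2 ratio was 0.06 (interval 0.01 to 0.11), on 7232 and 5856 reads. Dazap1 (ENSMUSG00000069565, chromosome 10, 80261486 to 80288408, plus strand), a splicing and translation regulator first found as a partner of the germ cell protein DAZ, had 262.7 and 255.5, a log2 ratio of -0.04 (interval -0.07 to -0.01). Both lay in the middle of all genes of mean 50 or more, with 47.6% and 34.6% of them lower. The signs depended on the scaling: Rbm14 went to -0.046 with scaling by total reads and -0.012 after the length and GC correction. Dazap1 went to 0.002 when scaled by TMM and to 0.01 by the median of ratios. With scaling by total reads Dazap1 stood at -0.14, and after the length and GC correction at -0.15.

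Rbmx was lower, and its relative Rbmxl1 was both lower and more abundant. Rbmx (ENSMUSG00000031134, X chromosome, 57383530 to 57393036, minus strand) encodes an hnRNP that binds nascent transcripts and takes part in sister chromatid cohesion. It had 42.0 and 31.7 (2741 and 1608 reads), a log2 ratio of -0.40 with an interval of -0.50 to -0.32. Of genes of mean 20 or more, 11.2% had a lower ratio, and the value was -0.27 after the length and GC correction. Rbmxl1 had 87.6 and 69.9, a log2 ratio of -0.32 (interval -0.39 to -0.26). Per kilobase it stood 5.33 times above Rbmx in the control and 5.64 times in the knockdown library. Rbmx and Rbmxl1 shared only 18 windows of 50 bases (0.546% of those of Rbmx and 1.06% of those of Rbmxl1). Rbmxl1 shared 74.9% of its windows with Gm7324 and 37.6% with Gm7192, so the value of Rbmxl1 is uncertain with respect to those copies. Of the other named relatives, Rbmx2 had 13.5 and 11.9, Rbm4 2.90 and 2.64, and Rbm4b 11.7 and 14.4.

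The cold-inducible pair differed little between the libraries. Rbm3 (ENSMUSG00000031167, X chromosome, 8138975 to 8145880, minus strand), which supports translation and synapse maintenance in the cold, had the highest deposited value of the 9 genes, 344.5 and 364.3. Its log2 ratio was 0.08 (interval 0.05 to 0.11), on 22479 and 18495 reads. It turned to -0.023 with scaling by total reads. Rbm3 is AT-rich for a gene of this group (GC 41.5%, in a decile with a median log2 ratio of -0.20), and after the length and GC correction its ratio was 0.29, the highest of the 9. Cirbp (ENSMUSG00000045193, chromosome 10, 80165985 to 80172786, plus strand), which stabilises messengers under stress, had 26.1 and 25.4, a log2 ratio of -0.04 whose interval of -0.14 to 0.07 included 0. It was 0.0034 with TMM scaling, 0.011 when scaled by the median of ratios and -0.15 after the length and GC correction. Per kilobase Rbm3 stood 7.32 times above Cirbp in the control and 7.95 times in the knockdown library.

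Among 5 further cold shock and RBM3-linked genes, 4 had a mean of at least 50, with none 1.5-fold lower or higher and a median of -0.23. Among all genes of that mean, 3.89% were at least 1.5-fold lower and 3.39% as much higher, with a median of 0.07. Ybx3 joined the 1.5-fold lower genes with scaling by total reads or after the length and GC correction. Ybx3, a cold shock domain repressor of translation, had 552.2 and 389.8, Rtn3, whose messenger RBM3 supports, 172.2 and 133.4, Carhsp1 265.2 and 324.0, and Ybx1 2045 and 1927. Of 12 heat shock genes 9 were measured, with 2 at least 1.5-fold higher (3.39% of genes), none as much lower (3.89%) and a median of 0.03. The higher ones were Hspb1, a small heat shock protein (281.6 and 520.9), and its partner Bag3 (69.6 and 106.0). Bag3, at 1.52-fold, fell short of 1.5-fold with scaling by total reads, with 5 added to each value or after the length and GC correction. Hspd1, the mitochondrial chaperonin, had 132.2 and 90.5, and the cochaperone Dnajb1 92.1 and 128.7. Scaled by total reads, the heat shock median was -0.08, 6 of the 9 stood below 0 (54.5% of genes) and 1, Hspd1, was at least 1.5-fold lower.

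Matr3 was too low to be compared with the rest. Matr3 (ENSMUSG00000037236, chromosome 18) encodes a nuclear matrix protein that binds RNA and DNA and is usually abundant in nuclei. Only 191 and 75 reads were assigned to it, giving values of 2.93 and 1.48. The log2 ratio was -0.79, with an interval of -1.39 to -0.59, and it was -0.29 when 5 was added to each value. A second annotated gene, Gm28285, shares 1754 of its 10158 exonic bases on the same strand and is not listed in these tables. In the transcripts 24.5% of the windows of Matr3 occurred in other genes. Whether the low value comes from shared reads was not tested.

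**Figure D2:**
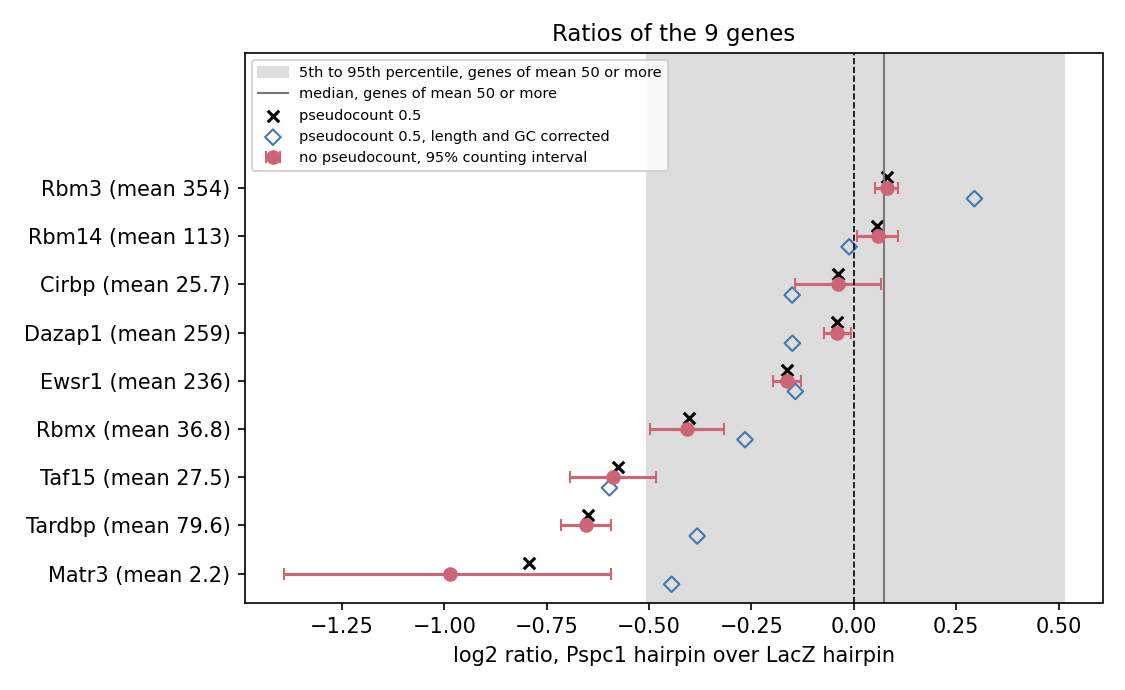
Log2 ratios of the 9 genes without a pseudocount (red, with 95% counting intervals), with 0.5 added (crosses) and with 0.5 added after the length and GC correction (diamonds), over the 5th to 95th percentile of genes of mean 50 or more (grey band) and their median of 0.07 (grey line). Tardbp, Taf15 and Matr3 lie left of the band without the correction, and after it the diamond of Taf15 alone stays outside. The band holds uncorrected ratios, and Taf15 and Matr3 average under 50, so it is not their own reference. Of genes of mean 20 or more, 5.67% had a lower uncorrected ratio than Taf15. Of all 11405 genes, 6.22% had a lower one than Matr3.

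The ratios of the 9 genes were set beside length and base composition. Over all 5889 genes of mean 20 or more with both properties, Spearman's rho was -0.32 between log2 ratio and exonic length and 0.28 between log2 ratio and GC content. Over the 9 genes it was -0.47 with length and 0.47 with GC content, given as a description, since the points share 2 libraries and all counting steps. Matr3 and Tardbp, the lowest ratios, had the longest exons of the 9 (10158 and 7796 bp). Taf15 did not follow this order, with only 2919 bp of exons, a length decile whose median log2 ratio was 0.10, and a ratio of -0.60 after the correction. Rbm3 departed the other way.

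**Figure D3:**
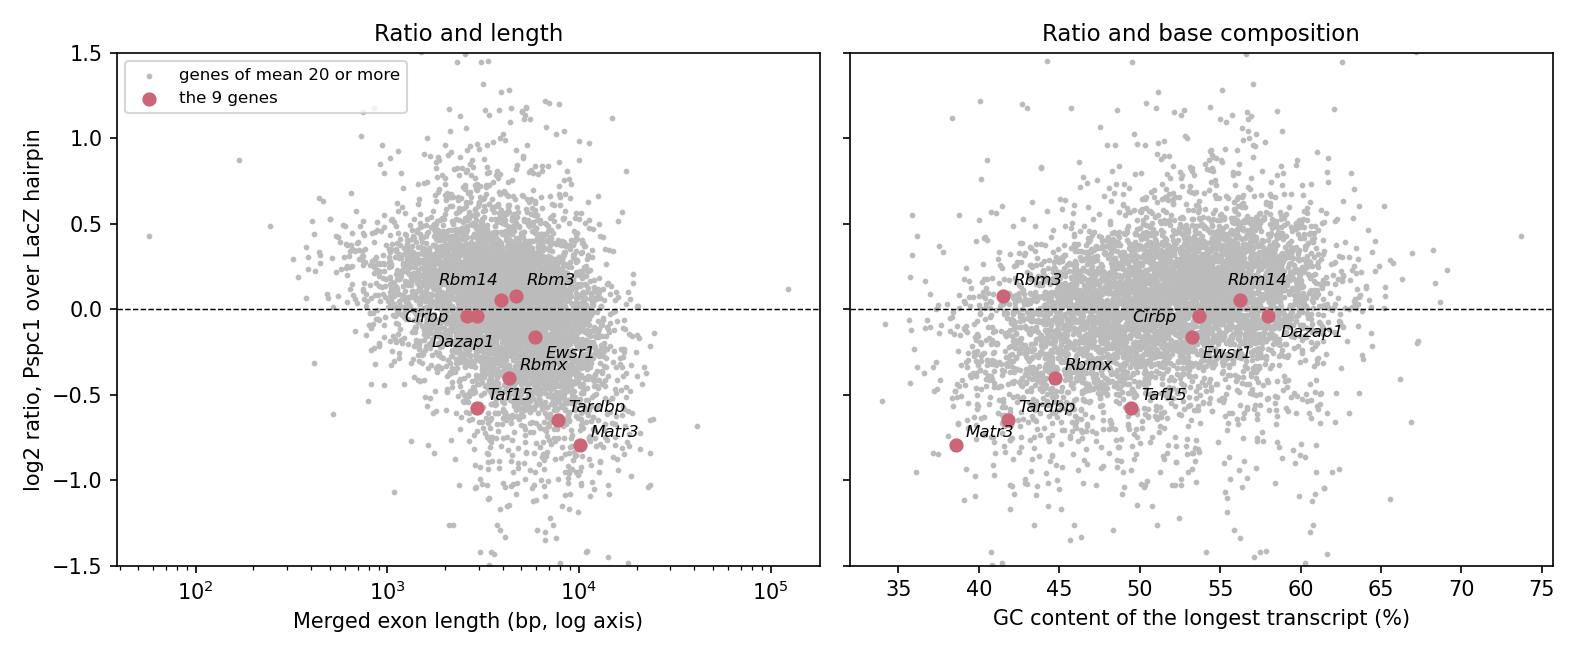
Log2 ratio of genes of mean 20 or more (grey) and of the 9 genes (red) against merged exon length on a log axis (left) and GC content of the longest transcript (right); genes beyond 1.5 on the ratio axis are not drawn. Tardbp and Matr3 lie at the long, AT-rich end with low ratios, while Taf15 has a low ratio at 2919 bp and Rbm3 a ratio above 0 at a GC content of 41.5%.

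Related RNA binders outside the 9 genes had lower medians as deposited, but not in every list after the length and GC correction. Of all genes of mean 50 or more, 39.9% stood below 0 (54.5% with scaling by total reads). At least 1.5-fold lower were 3.89%, and the median log2 ratio was 0.07. Of 6 genes of the paraspeckle core, 5 were measured and 4 stood below 0. The median log2 ratio of these 5 was -0.31. The scaffold Neat1 had 128.6 and 77.8, and it alone of the 5 was at least 1.5-fold lower, although its ratio was -0.28 after the length and GC correction. Hnrnpk, an hnRNP that steers Neat1 processing, had 413.3 and 307.8, the DBHS gene Sfpq 133.6 and 107.8, and the chromatin remodeller Smarca4 306.7 and 266.2. Of 23 other paraspeckle proteins 8 were measured, with a median of -0.24, 7 below 0 (8 with scaling by total reads), 1 at least 1.5-fold lower and none as much higher. That 1 gene was Hnrnph1 (78.9 and 43.7, or -0.55 after the correction). Ubap2l had 205.4 and 163.8, Hnrnpf 357.9 and 294.4, and the cleavage factor gene Nudt21 115.6 and 97.6.

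Prion-like RNA binders outside the 9 genes were below 0 in 8 of 8 measured cases out of 14, with a median of -0.35, and 2 were at least 1.5-fold lower (3 with scaling by total reads, 1 after the length and GC correction). These 8 stayed below 0 under every scaling, and 7 did after the length and GC correction. Of all genes of mean 50 or more, 39.9% stood below 0, 33.2% to 54.5% under the other scalings and 38.5% after the correction. At least 1.5-fold lower were 3.89%. Hnrnpa2b1, an hnRNP with many pseudogene copies, had 319.3 and 155.5, Hnrnpa3 160.5 and 113.1, and Hnrnpdl 73.4 and 52.5. Of 10 RNA binders of the nuclear matrix 5 were measured, 5 were below 0 (4 when scaled by TMM or by the median of ratios) and the median was -0.26. Hnrnpu, the scaffold attachment factor and the only one at least 1.5-fold lower (not after the length and GC correction, at -0.56), had 116.8 and 61.9, Hnrnpul2 237.5 and 171.7, Khdrbs1 119.1 and 99.3, and Safb 106.6 and 89.0. Median exonic lengths were 6466 bp for the core, 5596 bp for the other paraspeckle proteins, 5619 bp for the prion-like list and 7268 bp for the nuclear matrix list, against 3973 bp for all genes of mean 50 or more. After the length and GC correction the medians were -0.20, -0.10, -0.24 and -0.20 in that order, beside -0.14 for the 5 measured genes of the 9. All genes of mean 50 or more had a median of 0.07 after it. The core, other paraspeckle and prion-like lists share genes.

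Genes that import or modify these proteins showed no common direction. Of 10 listed, 7 were measured, none was 1.5-fold lower or higher, and 4 had a log2 ratio below 0 (3 when scaled by TMM or the median of ratios, or after the length and GC correction). Among all genes of mean 50 or more, 39.9% stood below 0, 3.89% were at least 1.5-fold lower and 3.39% as much higher. Tnpo1, the transportin that carries FET proteins into the nucleus, had 64.3 and 48.2, and the importin gene Kpnb1 519.6 and 393.6. Prmt1, which methylates the arginines of FET proteins, had 502.9 and 573.3, and Kpna2 282.1 and 257.6. The median was -0.02 and turned to 0.02 with TMM scaling. Over all 10 genes without a filter, 7 stood below 0, 3 were at least 1.5-fold lower and the median was -0.27. Of all 11405 genes, 6252 stood below 0 and 1457 were at least 1.5-fold lower, with a median of -0.05.

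**Figure D4:**
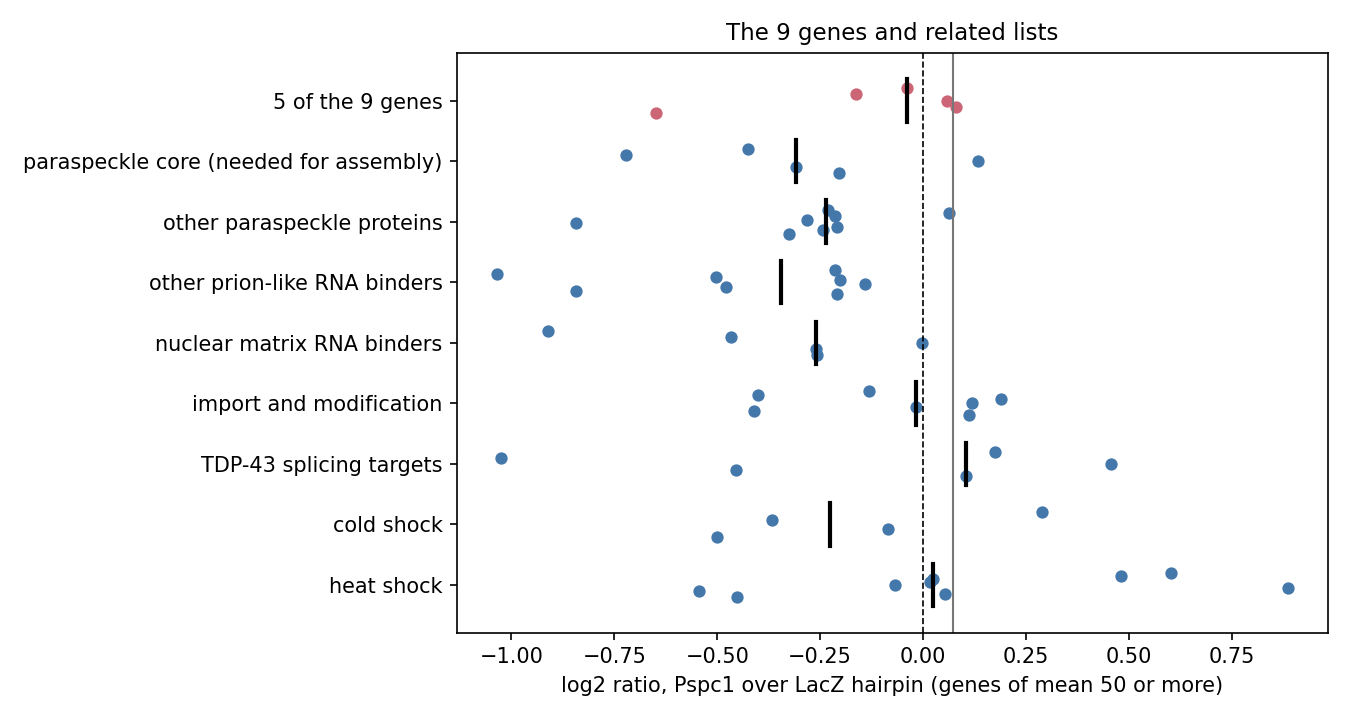
Log2 ratios of genes of mean 50 or more in each list (points), with the list median (black bar), the median of all genes of that mean (grey line, 0.07) and equality (dashed). The 5 measured genes of the 9 have a median of -0.04, between the TDP-43, import and heat shock lists near 0 and the paraspeckle, prion-like and nuclear matrix lists at -0.24 to -0.35.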

How the data were processed

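Poly-A RNA of MS1 cells was sequenced from 1 library per hairpin, made with the NEBNext Ultra RNA kit, per the labels' protocols. The submitters' processing notes name DESeq 1.39.0, featureCounts 2.0.0, HISAT2 2.1.0 and Trimmomatic 0.39 for build mm10, with no role or order. They give neither the annotation nor the strand setting. In the deposited files each gene has a signal that the authors had scaled. Every value was a whole multiple of 1 step per library (100% within 0.01 reads), and division by that step gave the reads behind the counting intervals (95%, conditional binomial, Clopper-Pearson). These cover counting error only, since the reads carry no molecular identifiers. Intervals of levels were exact Poisson limits.

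Log2 ratios used a pseudocount of 0.5, which understates changes of low genes. Thresholds were a mean of 50 and 2-fold or 1.5-fold. Symbols were found for 11399 of 11405 identifiers; coordinates, lengths and transcripts came from GENCODE M21 (mm10), which may not be the release the authors counted with. The length and GC correction subtracted a polynomial of degree 3 fitted to genes of mean 20 or more. The members and lists were chosen with earlier results of these data known. Named genes were the 9 members, Pspc1, all named relatives and, per list, the 4 genes of mean 50 or more with the largest absolute log2 ratio. From the lists, 2 genes are not reported here and enter no count. With 2 libraries a pattern is a single ratio, so no genes were ranked by likeness. Python 3.11.15, numpy 2.4.6, pandas 2.3.3, scipy 1.17.1, biopython 1.88 and matplotlib 3.10.9 were used, and the steps were tested on simulated reads.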

Additional observations from a re-analysis of the deposited data

How the results depend on the processing

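No paired analysis was possible because each group held 1 library and the result comes from no test. The counts of 0 genes past 2-fold held under all 8 alternatives. The 1 gene at least 1.5-fold lower, Tardbp, became 0 after the length and GC correction and 2 without a filter. There Matr3 joined it on 191 and 75 reads, and 1457 of all 11405 genes were as much lower. Ratios below 0 numbered 3 of 5, against 39.9% of genes. They numbered 5 of 5 with scaling by total reads (54.5% of genes) and 4 of 5 after the length and GC correction (38.5%). With a mean of at least 20 they were 6 of 8 (45%). Without a filter they were 7 of 9, beside 6252 of all 11405 genes. The median of -0.04 turned to 0.002 with TMM scaling and 0.01 by the median of ratios, and moved to -0.14 with scaling by total reads, -0.14 after the length and GC correction, -0.10 with a mean of at least 20 and -0.16 without a filter. Single reversed values were Dazap1 at 0.002 and 0.01, Rbm14 at -0.046 and -0.012, and Rbm3 at -0.023, under the settings named in the text. Cirbp also changed sign, within its counting interval, to 0.0034 with TMM and 0.011 by the median of ratios. The median of the TDP-43 target list turned to -0.44 without a filter, beside -0.05 for all genes. Each alternative scaling shifts every log2 ratio without a pseudocount by the same amount. That amount was 0.042 with TMM, 0.050 by the median of ratios and -0.104 with scaling by total reads. Why the scalings differ was not tested. Depth limited mainly Matr3, whose interval was the widest of the 9.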

Other observations

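Below the mean of 50, 2 genes of these lists were over 2-fold lower in the knockdown library; they were picked after their values were seen. Tnpo3, the importer of SR splicing factors, had 32.8 and 8.81, a log2 ratio of -1.84. Hsp90aa1, the inducible cytosolic HSP90, had 28.8 and 10.1 (-1.47), while its relative Hsp90ab1 had 2876 and 2911. Reads of both can be shared with further HSP90 copies.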
